A study of Mus musculus with 24 samples.

Results

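The comparison described here is that of the first dose label of mogroside V in normal glucose, 3 libraries titled NG1, with the untreated control in the same medium, 3 libraries titled NGC. They were chosen by their titles, and are 6 of the 24 libraries of the series. The cells were a mouse hypothalamic neuronal cell line, and gene expression was measured by RNA-seq of polyadenylated RNA. The whole series crossed 2 glucose media, normal (NG) and high (HG), with 4 treatment levels, a control and dose labels 1, 2 and 3. The series text lists 15, 60 and 160 µM of mogroside V, but the labels do not tie a dose label to a concentration, so doses are called by their label. NG1 and NGC thus shared the cell line and the normal glucose medium and differed, as far as the labels say, in mogroside V alone. The vehicle of the control, the time of exposure and the glucose concentrations are not given in the sources used here. Nor does a label say that the 3 libraries of a group are separate cultures. The p-values therefore reflect the spread between libraries only, and that spread may be technical. For the main gene tests it was estimated over 22 libraries of all 8 groups of the series, not over the NGC and NG1 libraries alone.

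Mogroside V is a cucurbitane triterpene glycoside of monk fruit that tastes intensely sweet and is used as a sweetener. Sweet substances are sensed through the TAS1R2 and TAS1R3 receptor pair, while cells respond to glucose itself through uptake by GLUT transporters, phosphorylation by hexokinases and the transcription factors MondoA and ChREBP, whose best-known targets include Txnip and Arrdc4. In the hypothalamus, neurons that sense glucose, insulin and leptin adjust feeding and blood glucose, and neuropeptides such as NPY, AgRP and POMC carry their output.

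The libraries held 4206607 to 5210198 reads counted in genes in NGC and 3539760 to 4216850 in NG1. The means were 4546068 ± 575201 and 3837873 ± 345712 (SD, n = 3 each), and this difference gave a two-sided exact permutation p of 0.2, where 0.1 is the smallest that 3 against 3 libraries allow. The 6 other measures of library quality compared in the same way, among them the number of genes detected and the share of mitochondrial counts, had exact permutation p of 0.3 or more, and all 7 had Benjamini-Hochberg adjusted values of 0.7 or more. The mitochondrial share was 7.71 ± 0.34% in NGC and 7.56 ± 0.23% in NG1 (SD, n = 3 each). Values below are CPM, read counts divided by the scaled library size and multiplied by a constant shared by all libraries, given in the order of replicates 1, 2 and 3.

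The labelled neuronal identity was checked against marker genes. Of the neuronal markers, Tubb3, a neuronal tubulin, stood at a mean of 58.2 CPM in NGC and 62.7 CPM in NG1, and Map2, a dendritic microtubule protein, at 48.3 and 57.6 CPM. Rbfox3, which encodes the marker NeuN of mature neurons, and Snap25, Elavl4 and Chga had 0 counts in all 6 libraries. Genes typical of fibroblasts and pericytes were detected, with Col1a2 at 3296 CPM and Acta2 at 1708 CPM in NGC. Others of that list were low in NGC, with 1 count for Lum, 10 counts for Rgs5 and a mean of 5.70 CPM for Dcn. The defining astrocyte genes Gfap, Aqp4 and Aldh1l1 had 0 counts in the 6 libraries, as had Olig1, Olig2, Sox10 and Mbp of oligodendrocytes. Other members of the glial and endothelial lists were detected, with NGC means of 3751 CPM for Vim, 209 for Sox9, 143 for Tmem119 and 35.6 for Pdgfra. The summed level of the neuronal markers was 187, 179 and 183 CPM in NGC and 206, 177 and 186 CPM in NG1. For the fibroblast and pericyte markers the sums were 7731, 7308 and 7728 CPM in NGC and 7786, 7610 and 7504 CPM in NG1. The ranges of both sums overlapped between the groups. Those of the astrocyte and tanycyte markers did not, at 4080, 4500 and 4061 CPM in NGC and 3522, 3890 and 3462 CPM in NG1. Vim alone made up most of this sum, at means of 3751 CPM in NGC and 3199 CPM in NG1. Of the 8 tested members of that list, 5 had lower and 3 higher NG1 levels.

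No gene passed the test for a difference between NG1 and NGC. Of 13281 genes tested with edgeR's quasi-likelihood test, 0 were higher and 0 lower at an adjusted p under 0.05, and DESeq2 also called 0. The lowest adjusted p from edgeR was 0.902. At an unadjusted p under 0.05 there were 648 genes, 4.88% of those tested, with 342 (2.58%) higher and 306 (2.3%) lower in NG1. Over 20 bins of the unadjusted p-value the number of genes per bin ranged from 630 to 703, around an equal share of 664 per bin. The median log2 difference over all tested genes was 0.01, and 51.2% of genes had a positive one. All 3 NG1 libraries lay outside the range of the 3 NGC libraries for 1554 genes (11.7%), above it for 784 (5.9%) and below it for 770 (5.8%).

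**Figure D1:**
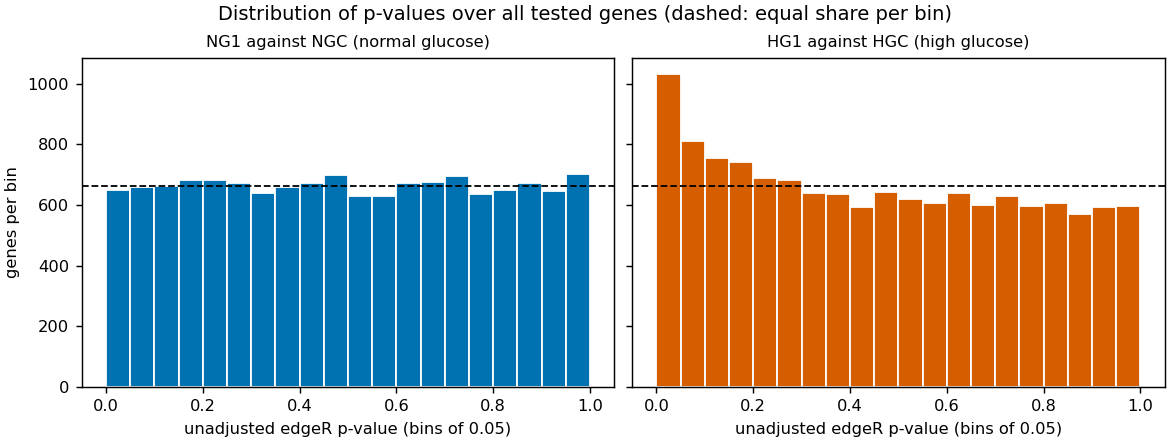
Histograms of unadjusted edgeR p-values over the 13281 tested genes, in bins of 0.05 (x axis) with the number of genes per bin (y axis), for NG1 against NGC and for HG1 against HGC, the same dose label in high glucose; the dashed line is an equal share per bin. The normal glucose comparison has 648 genes in its lowest bin, and the high glucose comparison 1033.

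How large a difference these libraries left room for depended on the level of a gene. The 95% interval of the NG1 to NGC ratio lay wholly within a 2-fold change in either direction for 9273 genes (69.8%), and within a 1.5-fold change for 5798 (43.7%). Among the 4741 genes with a mean of 20 to 100 CPM, 98.6% had an interval within 2-fold, and the median standard error of their log2 differences was 0.17. Among the 3089 genes under 5 CPM only 3.11% did, and that median was 0.64. Differences of 2-fold were therefore not excluded for most genes of low level.

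The genes nearest to the threshold are given next, 10 in each direction, all averaging 5 CPM or more in whichever group was higher. They were picked for their low unadjusted p in this comparison, so their differences are a description, and each of the 20 had an adjusted edgeR p of 0.902. Their levels did not overlap between NG1 and NGC for 19 of the 20, which their selection favours.

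Several of the genes with higher NG1 levels encode enzymes of lipid metabolism or secreted proteins. Cyp4v3, a cytochrome P450 of a family that hydroxylates fatty acids, stood at 5.49, 5.81 and 4.28 CPM in NGC and at 11.7, 11.7 and 11.6 CPM in NG1. The groups were well apart and the NG1 libraries nearly equal, with a log2 difference of 1.16 ± 0.29 (SE), a ratio of 2.23 with a 95% interval of 1.49 to 3.34. Scd2, a stearoyl-CoA desaturase that makes monounsaturated fatty acids, stood at 234, 267 and 245 CPM in NGC and at 335, 310 and 331 CPM in NG1, without overlap, a log2 difference of 0.39 ± 0.11. Slc38a6, of a family of amino acid transporters, stood at 12.2, 13.6 and 11.7 CPM against 21.5, 23.5 and 21.3 CPM, a log2 difference of 0.82 ± 0.23. Its 3 NG1 libraries lay close together and above every control.

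Igfbp4 encodes a secreted protein that binds insulin-like growth factors. It stood at 274, 262 and 268 CPM in NGC and at 374, 336 and 365 CPM in NG1, the spread within each group being small beside the gap between them, and the log2 difference was 0.42 ± 0.11. Chrdl1, a secreted antagonist of bone morphogenetic proteins (BMPs), stood at 9.03, 6.05 and 9.28 CPM against 14.3, 14.5 and 16.1 CPM, a log2 difference of 0.88 ± 0.24. Ogn, a proteoglycan of the extracellular matrix, stood at 102, 98.8 and 95.9 CPM in NGC and at 174, 124 and 122 CPM in NG1. For Mmp13, a collagenase, the levels were 98.7, 97.6 and 87.3 CPM against 165, 105 and 131 CPM. In both genes NG1 replicate 1 was the highest library, and the log2 difference was 0.50 ± 0.14 in each. The remaining 3 of these 10 genes were Dda1, a component of a ubiquitin ligase, with 0.55 ± 0.16, and 2310022B05Rik and Gm17018, with 0.34 ± 0.10 and 0.62 ± 0.18.

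Among genes with lower NG1 levels, Uchl1 and Map1b are known from neurons, but the list of neuronal markers as a whole was not lower. Of its 10 tested members, Uchl1 included, 7 had higher and 3 lower NG1 levels, with a median log2 difference of 0.18. A rise of the list was not shown either, since its summed levels overlapped between the groups. Only 4 of the 10 had an interval of the ratio within a 2-fold change, and several, such as Nefl and Syn1, averaged under 5 CPM. At an unadjusted edgeR p under 0.05, 0 members were higher and 1, Uchl1, was lower. Uchl1, a deubiquitinase abundant in neurons and one of the neuronal markers, stood at 20.8, 23.5 and 16.7 CPM against 11.4, 9.79 and 13.0 CPM, a log2 difference of -0.83 ± 0.24. It was lower in every NG1 library than in any NGC library. Map1b, a microtubule protein of growing axons, stood at 265, 251 and 177 CPM in NGC and at 161, 160 and 184 CPM in NG1, so that NGC replicate 3 lay inside the NG1 range. It was the only one of the 20 genes whose groups overlapped, and its log2 difference was -0.46 ± 0.12.

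Of 7 more genes with lower levels, 3 act in the nucleolus. Dkc1, the pseudouridine synthase of small nucleolar ribonucleoproteins, stood at 228, 175 and 168 CPM in NGC and at 137, 140 and 148 CPM in NG1, a log2 difference of -0.43 ± 0.13. Esf1, an rRNA processing factor, stood at 215, 189 and 163 CPM against 139, 137 and 138 CPM. For Tsr1, a factor of small ribosomal subunit maturation, the levels were 39.6, 24.7 and 35.7 CPM against 21.7, 24.3 and 19.1 CPM. In all 3 genes NGC replicate 1 was the highest control. Pif1, a DNA helicase, Baz1a, a subunit of a chromatin remodelling complex, Cdk11b, a kinase, and H2afj, a histone H2A variant, had log2 differences of -0.63 ± 0.17, -0.50 ± 0.14, -0.39 ± 0.11 and -0.70 ± 0.20.

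**Figure D2:**
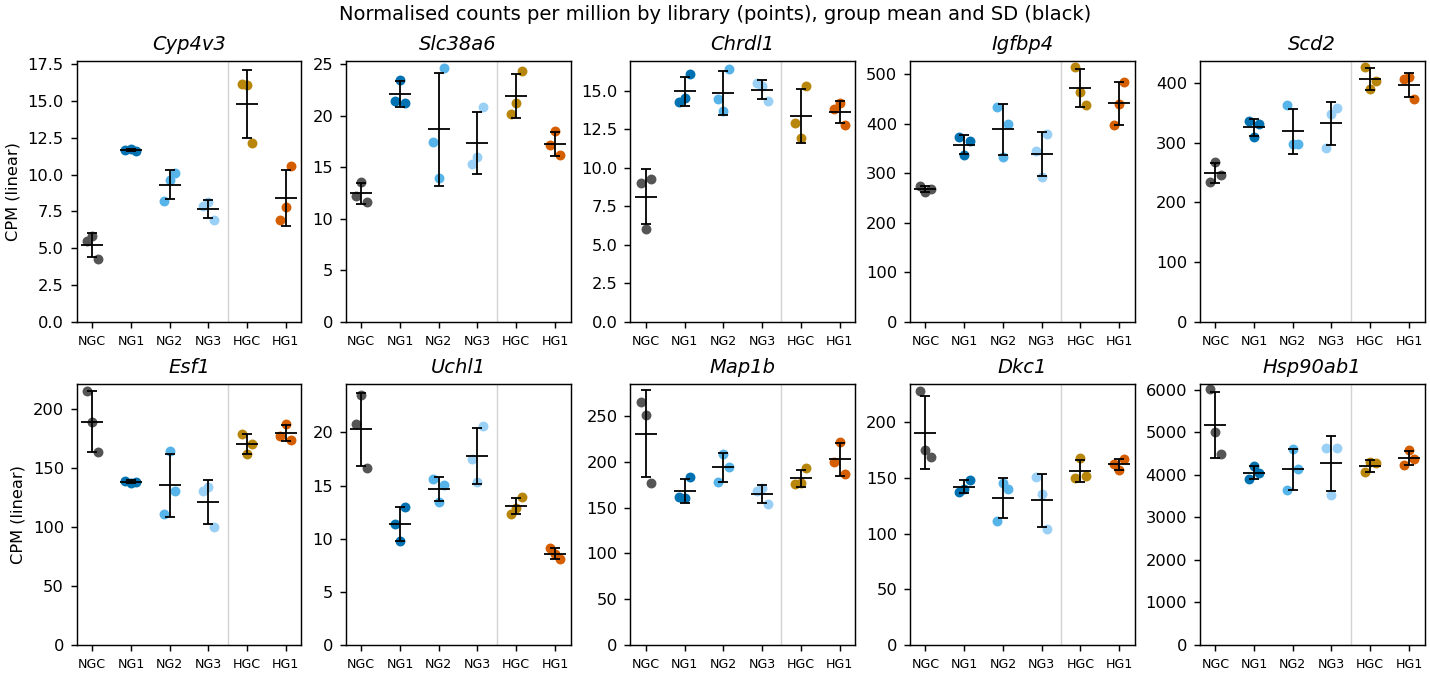
CPM on a linear axis in each library (points) with the group mean and SD (black) for 10 named genes, in NGC, NG1, NG2 and NG3 of normal glucose and, right of the grey line, HGC and HG1 of high glucose. Cyp4v3 stood near 11.7 CPM in all 3 NG1 libraries and at no more than 5.81 CPM in NGC, while HG1 lay below HGC.

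Genes of glucose uptake and sensing gave no difference at an unadjusted p under 0.05. Txnip, an arrestin-like inhibitor of glucose uptake, stood at 88.5, 119 and 168 CPM in NGC and at 134, 165 and 120 CPM in NG1. The groups overlapped fully, and the ratio was 1.12 with a 95% interval of 0.816 to 1.53. Arrdc4, its close relative, had a ratio of 1.18 (0.726 to 1.93). Slc2a1, the transporter GLUT1, stood at 39.2, 35.8 and 25 CPM against 27.6, 38.9 and 30.5 CPM, a ratio of 0.964 (0.752 to 1.24). Hk2, a hexokinase, had a ratio of 0.958 (0.761 to 1.21). Changes of 2-fold in either direction therefore lay outside the intervals of these 4 genes, and changes of 1.5-fold outside those of Slc2a1 and Hk2.

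The genes of insulin and IGF signalling were measured with like precision. The insulin receptor gene Insr had a ratio of 0.964 (95% interval 0.702 to 1.33), the IGF receptor gene Igf1r 1.05 (0.877 to 1.26) and the adaptor Irs1 1.05 (0.836 to 1.33). Irs2, the other main adaptor, stood at 70.6, 63.9 and 48.3 CPM in NGC and at 79.5, 49.5 and 56.2 CPM in NG1, overlapping, with a ratio of 1.01 (0.719 to 1.42). Prkaa1, a catalytic subunit of the energy sensor AMPK, had a ratio of 0.888 (0.725 to 1.09). The sterol efflux pump Abca1 had 1.18 (0.889 to 1.57). Wide intervals remained for the transporter Slc2a3 at 1.05 (0.414 to 2.64), for Prkaa2 at 0.984 (0.428 to 2.26) and for the neuropeptide receptor gene Npy1r at 1.42 (0.524 to 3.84). In all, 15 of the 20 genes of this set were tested, all 15 intervals included no difference, and 12 lay within a 2-fold change.

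The other 5 were not tested because almost no read fell on them. Lepr, the leptin receptor gene, had 0 counts in all 6 libraries. The sweet taste receptor gene Tas1r2 had 1 count in NGC replicate 1 and 0 elsewhere, and its partner Tas1r3 had 2, 1 and 0 counts in NGC and 1, 0 and 0 in NG1. Mlxipl, which encodes ChREBP, had 1 count over the 6 libraries. Of 17 genes of sweet taste and its signalling, 8 had 0 counts in all 6 libraries and 2 passed the filter on low counts. These were Itpr3, an intracellular calcium channel, with a log2 difference of 0.26 ± 0.14, and the G protein subunit gene Gnb1 with -0.10 ± 0.11. Of 27 feeding neuropeptides and their receptors, 16 had 0 counts and 3 were tested. At this depth no statement on a difference could be made for the genes not tested.

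**Figure D3:**
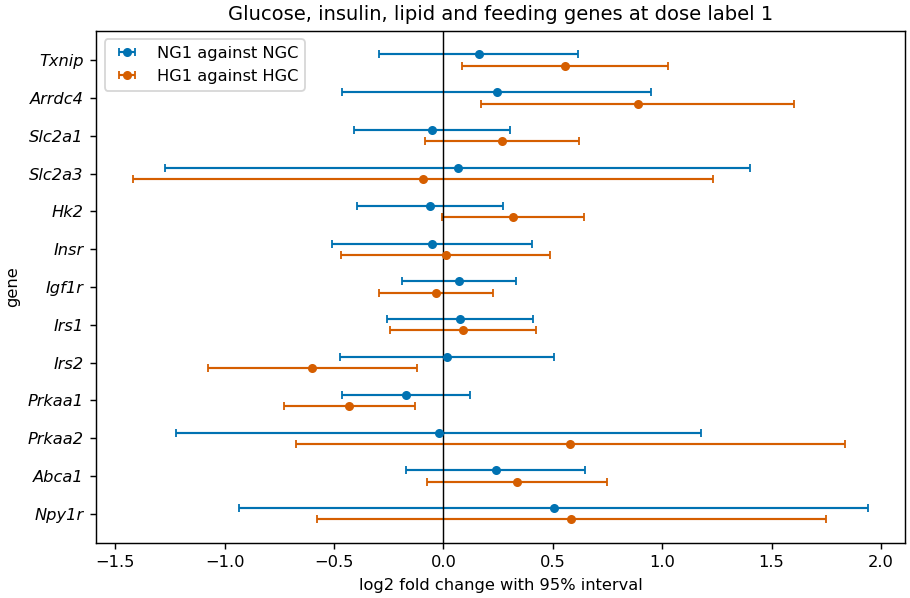
Log2 ratio (points) with its 95% interval (bars) for 13 genes of glucose, insulin, lipid and feeding control, in NG1 against NGC (blue) and HG1 against HGC (orange); the vertical line marks no difference. All 13 normal glucose intervals cross the line, and those of Slc2a3, Prkaa2 and Npy1r are wide.

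Gene lists for 37 pathways and cell types gave the same picture. None held a gene that passed the test. Their 600 tested members included 53 (8.83%) at an unadjusted p under 0.05, beside 4.88% of all genes. That share also differs with the level of a gene, being 7.56% among all 1944 genes of at least 100 CPM and 3.5% among those under 5 CPM. Members of a list are given below beside the median of all genes, 0.01, and beside the same list in high glucose. The lists were chosen with earlier results of these data known. At an unadjusted p under 0.05, 2.58% of all tested genes were higher and 2.3% lower in NG1. Summed levels did not overlap between the groups in several lists, and were not tested. Such sums rest most on members of high level. They were higher in NG1 for insulin and IGF signalling, both cholesterol lists, fatty acid synthesis, lysosome and autophagy genes and feeding genes. They were lower for DNA replication, ribosome biogenesis, heat shock, chaperones of the endoplasmic reticulum, the integrated stress response and the astrocyte and tanycyte markers. Of single tested genes, 11.7% did not overlap. In other lists, such as glycolysis and mitosis, the sums overlapped.

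The lists of protein synthesis and folding had medians below that of all genes. In the list of ribosome biogenesis, which holds factors that build ribosomes in the nucleolus, 19 of 26 tested members had lower and 7 higher NG1 levels, with a median log2 difference of -0.14, or -0.07 without NG1 replicate 1. An unadjusted p under 0.05 was reached by 5, all of them lower, beside 2.3% of all tested genes. In every NG1 library, 8 lay below the range of NGC and 1 above, beside 5.8% and 5.9% of all tested genes. The summed level of the list was 4650, 4665 and 4304 CPM in NGC and 4084, 4032 and 3963 CPM in NG1, without overlap. Dkc1 and Tsr1 belong to this list. Of the others, Wdr12, a factor of large subunit assembly, stood at 65.9, 63.7 and 57.8 CPM against 51.4, 45 and 46.8 CPM, a log2 difference of -0.39 ± 0.14. The median of the same list was -0.01 in high glucose.

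Of 16 heat shock genes, 10 had lower and 6 higher NG1 levels, with a median of -0.09. The 3 at an unadjusted p under 0.05 were all lower and encode cytosolic chaperones. Hsp90ab1, the constitutive HSP90, stood at 6013, 5015 and 4503 CPM in NGC and at 3906, 4207 and 4052 CPM in NG1, a log2 difference of -0.35 ± 0.11. Hspa8, the constitutive HSP70, stood at 624, 448 and 501 CPM against 408, 444 and 403 CPM, and Hsp90aa1, the inducible HSP90, at 1091, 1115 and 907 CPM against 902, 859 and 849 CPM. The groups did not overlap for these 3 genes, although NGC replicate 2 of Hspa8 was close to the highest NG1 library. In high glucose the list had a median of 0.15.

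Of 30 ribosomal protein genes, 20 had lower and 10 higher levels, with a median of -0.04, which became 0.02 without NGC replicate 2. Rpl4, a protein of the large subunit, stood at 1487, 1402 and 1125 CPM in NGC and at 1082, 1092 and 995 CPM in NG1, with a log2 difference of -0.34 ± 0.13 here and 0.48 ± 0.13 in high glucose. Ribosomal protein genes have near-identical processed pseudogenes, so their counts are uncertain. In the integrated stress response, 11 of 22 members had lower levels, with a median of -0.02. Asns, which makes asparagine, stood at 67.1, 79.9 and 65.9 CPM against 54.8, 49.2 and 55 CPM, and Psat1, of serine synthesis, at 241, 222 and 250 CPM against 189, 210 and 180 CPM. Both had lower levels in every NG1 library, with log2 differences of -0.42 ± 0.13 and -0.30 ± 0.11.

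The lists of lysosomes, fatty acid synthesis and cholesterol had medians above that of all genes, while other lipid lists did not. Fatty acid oxidation (14 tested, 8 lower) had a median of -0.01 and lipid droplets (9 tested, 5 lower) -0.09, and both took either sign over the alternatives. Of 29 lysosome and autophagy genes, 23 had higher and 6 lower NG1 levels, with a median of 0.10, and the 5 at an unadjusted p under 0.05 were all higher. Psap, the precursor of the saposins that help to degrade sphingolipids, stood at 360, 691 and 617 CPM in NGC and at 813, 754 and 920 CPM in NG1, a log2 difference of 0.58 ± 0.19. Lamp1, a lysosomal membrane protein, stood at 221, 370 and 376 CPM against 424, 380 and 461 CPM. In both genes NGC replicate 1 was far below the other controls. Lamp2, the related membrane protein, was more even at 292, 279 and 340 CPM against 374, 363 and 357 CPM, a log2 difference of 0.26 ± 0.10. The summed level of the list was 5076, 5269 and 5712 CPM in NGC and 5977, 5740 and 5867 CPM in NG1, and its median in high glucose was -0.00.

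Of 15 fatty acid synthesis genes, 14 had higher NG1 levels, with a median of 0.09. Those at an unadjusted p under 0.05 were Scd2, Acsl4 and Fads2. Acsl4, which activates arachidonic acid, stood at 132, 142 and 149 CPM in NGC and at 180, 176 and 167 CPM in NG1, a log2 difference of 0.30 ± 0.12. The summed level was 1514, 1578 and 1532 CPM against 1741, 1705 and 1736 CPM, without overlap, and the median in high glucose was 0.01. Of 9 genes of cholesterol efflux, 8 had higher levels, with a median of 0.24, or 0.13 without NGC replicate 1. Npc2, which hands cholesterol out of the lysosome and belongs to this list, stood at 409, 380 and 435 CPM against 506, 448 and 503 CPM. Of 25 genes of cholesterol synthesis and uptake, 16 had higher and 9 lower levels, with a median of 0.09, and Mvk, mevalonate kinase, was the single member at an unadjusted p under 0.05. It stood at 32.4, 43.1 and 42.6 CPM in NGC and at 51.7, 51.7 and 56 CPM in NG1.

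Other lists lay near the median of all genes or held members on both sides. Of 34 extracellular matrix and TGF-beta genes, 21 had higher levels, with a median of 0.02. Mmp3, a stromelysin, stood at 237, 312 and 317 CPM in NGC and at 423, 360 and 353 CPM in NG1, and Col6a1, a collagen VI chain, at 104, 101 and 99 CPM against 123, 119 and 123 CPM. Glycolysis (22 tested) had a median of -0.00, nuclear complex I genes (22) 0.02, the genes encoded in mitochondria (8) -0.05, insulin and IGF signalling (26) 0.02, the circadian clock (16) 0.05, mitosis (26) -0.04 and DNA replication (28) -0.05. Summed insulin and IGF signalling levels did not overlap, at 2351, 2364 and 2399 CPM in NGC against 2607, 2522 and 2537 CPM in NG1. That sum includes Igfbp4, already picked for its low p, at means of 268 CPM in NGC and 358 CPM in NG1. Of the 26 members, 17 had higher and 9 lower NG1 levels. The summed levels of DNA replication did not overlap either, at 3722, 3673 and 3827 CPM against 3663, 3555 and 3562 CPM.

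Among 29 immediate early genes, 19 had lower levels and the median was -0.16, or -0.01 without NGC replicate 1, yet the single member at an unadjusted p under 0.05 was higher. This was Fos, a transcription factor induced by many stimuli, at 33.2, 33.2 and 37.3 CPM in NGC and 71.8, 63.2 and 44.9 CPM in NG1. Of 17 inflammation genes, 9 had higher levels. Cxcl12, a chemokine, stood at 711, 706 and 709 CPM against 932, 815 and 825 CPM, a log2 difference of 0.27 ± 0.09. Ptgs2, the inducible cyclooxygenase, stood at 240, 200 and 165 CPM against 136, 153 and 108 CPM, a log2 difference of -0.61 ± 0.22. Of 19 interferon genes, 10 had lower levels. Stat2, a transcription factor of the interferon response, was higher at 17.5, 27.1 and 29.8 CPM against 13.0, 15.3 and 15.2 CPM. Its target Isg15 was lower at 13.5, 12 and 15.8 CPM against 29.4, 20.1 and 18.6 CPM in NGC. Ifit3, another interferon gene of the list, was higher, at means of 14.6 CPM against 9.66 CPM in NGC, a log2 difference of 0.60 ± 0.25.

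**Figure D4:**
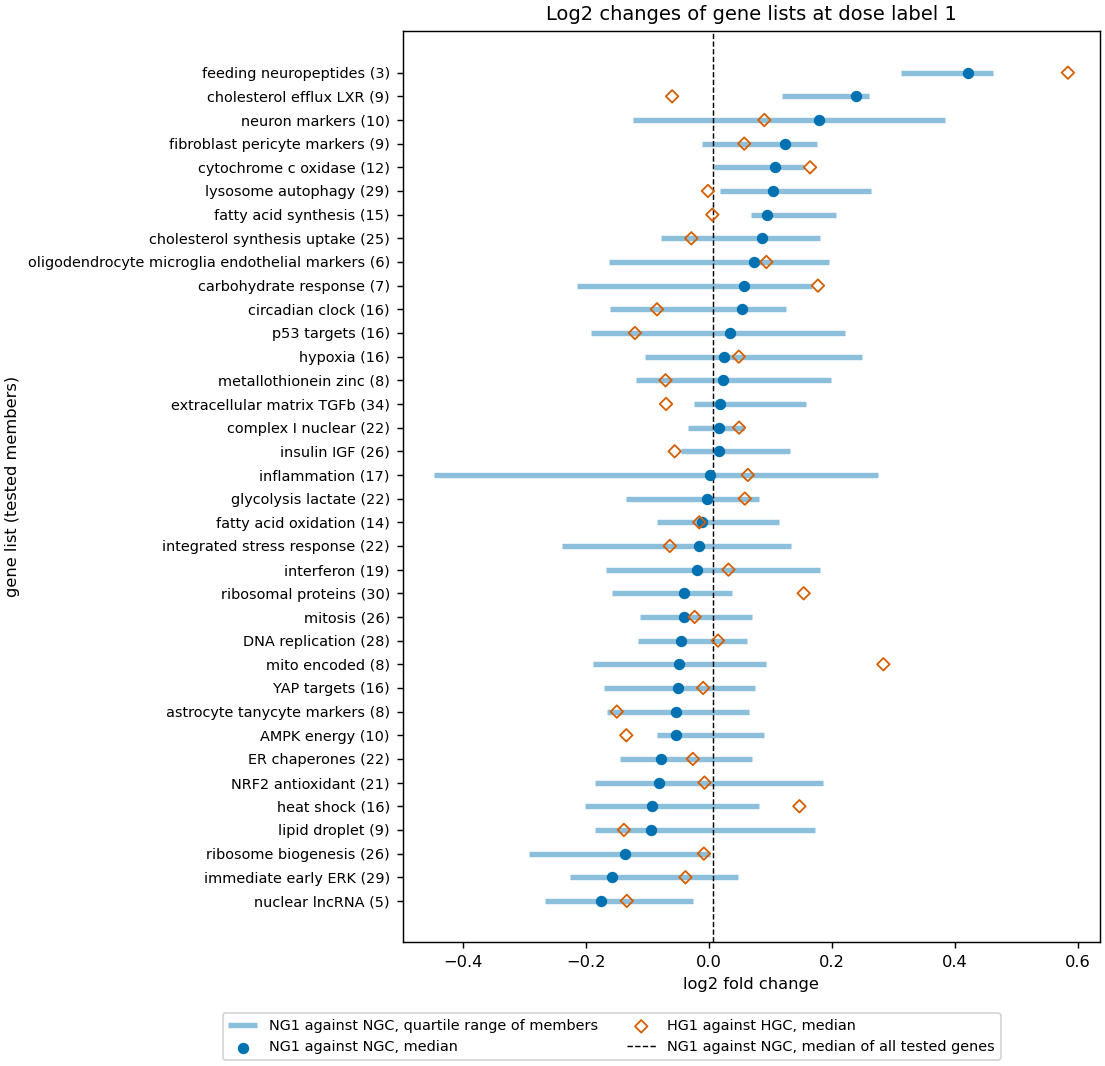
Log2 differences (x axis) of the 36 lists with at least 3 tested members, with the number tested in brackets; filled points are list medians and bars the range between the quartiles of the members in NG1 against NGC, open diamonds are medians in HG1 against HGC, and the dashed line is the median of all genes in NG1 against NGC, 0.01. Medians run from -0.18 to 0.42, the highest resting on 3 feeding genes.

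The same dose label in high glucose, HG1 against HGC with 3 libraries each, shares no library with this comparison. There, edgeR also called 0 genes, with 1033 (7.78%) at an unadjusted p under 0.05 and a lowest adjusted p of 0.136, whereas DESeq2 called 9. Of the 342 genes higher in NG1 at an unadjusted p under 0.05, 163 (47.7%) were also higher in HG1, with a median log2 difference of 0.58 in normal and -0.02 in high glucose. Of the 306 genes lower in NG1, 103 (33.7%) were also lower in HG1, with medians of -0.42 and 0.09. Over all 13281 genes the sign was the same for 47.9%. Thus the genes nearest to the threshold in normal glucose had the same sign in high glucose no more often than all genes.

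The difference between the media was tested directly as an interaction, the HG1 to HGC log2 difference minus that of NG1 to NGC. No gene passed in edgeR, where 981 (7.39%) had an unadjusted p under 0.05 and the lowest adjusted p was 0.131, while DESeq2 called 11. That value belonged to Cyp4v3, which in high glucose stood at 16.1, 16.1 and 12.2 CPM in HGC and at 6.91, 7.77 and 10.6 CPM in HG1. The groups were apart in both media with opposite order, an interaction of -1.97 ± 0.40. Dda1 had the same adjusted p of 0.131. It stood at 33.0, 45.5 and 44.0 CPM in NGC and 64.4, 59.3 and 55.5 CPM in NG1, and at 60.5, 79.9 and 70.4 CPM in HGC and 47.6, 58.7 and 48.1 CPM in HG1, an interaction of -1.002 ± 0.22. For Rpl4 and Col6a1 the interactions were 0.82 with an adjusted edgeR p of 0.154 and -0.71 with 0.162. These genes were named for their differences in normal glucose, which favours a low interaction p. Their calls changed with the setting: in 19 alternatives, Cyp4v3, Dda1 and Rpl4 passed in 3 each and Col6a1 in 1, with adjusted p from 0.0275 to 0.437 for Cyp4v3, 0.0137 to 0.441 for Dda1, 6.6e-05 to 0.668 for Rpl4 and 0.0224 to 0.668 for Col6a1.

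Of the 20 genes nearest to the threshold, 14 had the opposite sign in high glucose. Scd2 and Igfbp4 had log2 differences of -0.04 ± 0.11 and -0.10 ± 0.11 there. Uchl1 kept its sign, at -0.60 ± 0.26 in HG1 against HGC. The intervals of 3 glucose-related genes that included no difference in normal glucose stand beside log2 differences in high glucose of 0.56 ± 0.23 for Txnip, 0.27 ± 0.17 for Slc2a1 and -0.60 ± 0.23 for Irs2. Their interactions had adjusted edgeR p of 0.849, 0.839 and 0.730, so no difference between the media was shown for them.

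The other dose labels in normal glucose, NG2 and NG3, were set against the same NGC libraries, so their values are not independent of those of NG1. Cyp4v3 had log2 differences from NGC of 1.16 at label 1, 0.83 at label 2 and 0.55 at label 3, but the labels give no dose to read an order from. For Scd2 they were 0.39, 0.36 and 0.42, for Igfbp4 0.42, 0.54 and 0.34, and for Dkc1 -0.43, -0.54 and -0.55. Compared directly, NG1 and NG2 gave 0 called genes in edgeR and DESeq2 and 403 (3.03%) at an unadjusted p under 0.05, with a lowest adjusted edgeR p of 0.863. NG1 and NG3 gave 0 in edgeR and 1 in DESeq2, with 871 (6.56%) at an unadjusted p under 0.05 and a lowest adjusted edgeR p of 0.0959. Without NG3 replicate 2 edgeR called 27 genes between NG1 and NG3. None of the 20 named genes had an unadjusted edgeR p under 0.05 between NG1 and NG2, and 5 did between NG1 and NG3. For Cyp4v3 the difference of NG1 from NG2 was 0.33 ± 0.27 and from NG3 0.61 ± 0.28.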

How the data were processed

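RNA-seq counts of 24 libraries were used, 3 for each of 8 groups read from the sample titles. The authors deposited raw read counts, as whole numbers for each gene and library. FastQC 0.11.9, STAR 2.7.5c, HTSeq 1.99.2, DESeq2 3.16 and the build GRCm39 are named in the submitters' processing notes. The strand setting of the counting is unknown here, and antisense genes that overlap cannot be told apart. Coordinates are left out, since the annotation at hand is of another build. Per the labels' protocols, the PureLink RNA Mini Kit and the VAHTS Universal V8 kit were used.

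Per file there are 56941 gene IDs, and 5 HTSeq summary lines that were dropped before library sizes were summed. In NGC and NG1, reads in no feature averaged 18.0 and 19.0%, ambiguous reads 3.74 and 3.60%, and reads aligned to several places 17.2 and 17.0%. Symbols were found for 51948 IDs, holding 91.8% of gene counts. The files of HG2 replicate 3 and HG3 replicate 2 were identical and both were left out. Neither belongs to NGC or NG1, but their absence touches the filter on low counts, the scaling and the shared estimate of spread. After edgeR's filter on low counts, 13281 genes remained. One edgeR quasi-likelihood model (edgeR 4.0.16, R 4.3.3, TMM scaling) was fitted to 22 libraries and 8 groups, with Benjamini-Hochberg adjustment over all tested genes and a threshold of 0.05. The 95% intervals are the estimate plus or minus t times its standard error. The script was tested on simulated data.

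Genes were named by rule: those past the threshold, then those of lowest p up to 10 in each direction with at least 5 CPM in the higher group, up to 4 members per list, and a set of 20 genes. Which list members appear was narrowed after their values were seen, and 4 genes that the rule names are not reported here. The comparison, the genes and the lists were chosen with earlier results of these data known. Alternatives were DESeq2 1.42.0, RLE scaling, no filter on low counts, a fit of the compared groups alone, a replicate block, leaving out each library, all 24 files, and leaving out NG3 replicate 3 with HGC replicate 2.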

Additional observations from a re-analysis of the deposited data

How the results depend on the processing

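For NG1 against NGC, 0 genes were called under all 13 alternatives, the fit with the replicate block included, and the lowest adjusted p of any gene was 0.0927 or more. The number at an unadjusted p under 0.05 ranged from 370 (without NGC replicate 1) to 973 (no filter on low counts). Of 76 genes, all but the 15 tested members of the set of 20 were picked by their p in this comparison, which favours a kept sign. In each alternative that gave them a value (12 for Npy1r, 13 for the others), 68 of the 76 kept their sign. The other 8 belong to the glucose and insulin set, where leaving out 1 library gave log2 differences of -0.040 to 0.43 for Txnip, -0.22 to 0.085 for Slc2a1, -0.31 to 0.93 for Slc2a3, -0.15 to 0.089 for Insr, -0.21 to 0.10 for Hk2, -0.051 to 0.48 for Arrdc4, -0.21 to 0.15 for Irs2 and -0.31 to 0.22 for Prkaa2. The replicate block turned Prkaa2 to 0.020. Over the alternatives the list medians ran from 0.07 to 0.16 for lysosome and autophagy genes, -0.14 to -0.09 for heat shock genes and 0.04 to 0.10 for cholesterol synthesis and uptake.

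The calls of the other comparisons varied, and the cause was not tested. HG1 against HGC gave 9 with DESeq2, 50 with no filter on low counts, 14 with the compared groups alone, 2 with the replicate block and 0 to 3 on leaving out 1 library, 3 being without HG1 replicate 3. The interaction gave 11, 35 and 12 under the first 3 of these and 0 to 3 on leaving out 1 library. NG1 against NG2 gave 1 with the compared groups alone. NG1 against NG3 gave 1 with DESeq2, 14 with no filter, 1 with the compared groups alone, 1 with all 24 files and 0 to 27 on leaving out 1 library.

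Same-numbered NGC and NG1 libraries had deviations that correlated at 0.07, -0.04 and 0.03, and differently numbered ones at -0.08 to 0.04. No pairing by number was therefore visible, which cannot show that the libraries were not paired. The replicate block moved the count at an unadjusted p under 0.05 from 648 to 679. Depth limits what can be said of genes under 5 CPM. Counts on near-identical copies are uncertain.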

Other observations

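Below the level required of named genes, 3 genes chosen after their values were seen had among the lowest unadjusted p in NG1 against NGC. Anks6 had 18, 20 and 20 counts in NGC and 4, 5 and 6 counts in NG1, 58 against 15 in total, with an adjusted edgeR p of 0.902. The 5S ribosomal RNA copy n-R5s25 had 0 counts in all NGC libraries and 12, 2 and 11 in NG1, and the pseudogene Rpl31-ps14 had 0, 1 and 0 against 10, 6 and 11. Both share their sequence with other copies, so their counts are uncertain.

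Vim, the intermediate filament gene among the astrocyte and tanycyte markers, stood at 3570, 4068 and 3615 CPM in NGC and at 3083, 3451 and 3064 CPM in NG1, with log2 differences of -0.23 ± 0.09 here and 0.23 ± 0.09 in high glucose, and an adjusted edgeR p of 0.348 for the interaction.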
